A study of Homo sapiens with 4 samples.

Results

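The epidermal growth factor (EGF) family genes were followed in a renal cell carcinoma line after siRNA against Schlafen 5 (SLFN5). The set held 10 gene names: the ligands TGFA, EREG, HBEGF, NRG1, AREG and BTC, the receptors EGFR, ERBB2 and ERBB3, and the receptor inhibitor ERRFI1. They were taken by gene name from the authors' deposited table and matched 11 of its 57659 rows, because BTC stood under 2 Ensembl identifiers (ENSG00000174808 and ENSG00000261530). All RNA came from 786-0, an established human line of renal cell carcinoma, and was read by poly(A)-selected, single-end RNA-seq. SLFN5 siRNA 1 and SLFN5 siRNA 2 were libraries of cells given siRNA against SLFN5, and control 1 and control 2 were libraries of cells given a control siRNA, so that both groups were transfected. The design text speaks of triplicates, and 2 libraries per group were analysed here. The labels state neither the siRNA sequences nor the time after transfection. They also do not say whether libraries sharing a treatment came from different cultures, so p-values measure only the spread between these libraries, which may be technical.

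Ligands of the EGF family are made as membrane-bound precursors that metalloproteinases such as ADAM17 cut loose. The freed ligand pairs receptors of the ERBB family, whose kinases then start RAS-ERK and PI3K-AKT signalling. ERRFI1 (MIG6) is made in response to that signalling and inhibits the receptor kinase. In clear cell renal carcinoma, TGFA and EGFR are known as an autocrine pair, and 786-0 is known to lack functional VHL.

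Values are equalised counts, the authors' counts per gene adjusted to one common library size. The whole counts behind them were recovered by inverting that adjustment, and they summed to 17117659 in SLFN5 siRNA 1, 14700669 in SLFN5 siRNA 2, 31905328 in control 1 and 13187517 in control 2. SLFN5 stood at 167 and 118 equalised counts in the SLFN5 siRNA libraries and at 420 and 353 in the control libraries, a fold of 0.366 (limma, adjusted p = 5.24e-04), so the target was lowered and not removed. All 11 renal carcinoma and epithelial markers on the list were detected. Limma called 4 of them higher and 3 lower after SLFN5 siRNA, beside 13.3% higher and 16.3% lower of all tested genes. The other 4 had no call, among them the renal marker PAX8 at 3392 to 4129 equalised counts over all libraries. Of the markers of other cell types, the leukocyte gene PTPRC had 1 recovered count in all and the endothelial gene PECAM1 had 0. The fibroblast marker list summed to 169 and 180 equalised counts in SLFN5 siRNA libraries and to 232 and 133 in controls, its genes LUM and ACTA2 being present at low level. Of its 4 tested genes, ACTA2 was called higher (log2 change 1.33, limma adjusted p = 0.0257) and PDGFRB lower (-1.82, adjusted p = 0.0336). LUM and COL1A1 did not pass. The leukocyte list summed to 32.7 and 20.1 after SLFN5 siRNA and to 17.3 and 10.6 in controls, and the endothelial list to 21.6 and 45.7 after SLFN5 siRNA and to 9.23 and 19.2 in controls. Their only tested genes were ITGAM (leukocyte, 64 recovered counts in all) and ESAM (endothelial, 57), and neither passed. The part of these markers in the results was not tested.

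Within the family the ligands and receptors moved in different directions. TGFA, EREG and ERRFI1 were higher after SLFN5 siRNA, HBEGF and EGFR were lower, and NRG1, ERBB2 and AREG did not pass the threshold. BTC and ERBB3 were too low to test. Genes with at least 10 equalised counts in at least 2 libraries were tested, and log2(value + 1) was compared by limma with Benjamini-Hochberg adjustment over all 15640 tested genes and a threshold of 0.05. Of all tested genes, 13.3% were called higher and 16.3% lower (29.6% in all), beside 3 higher and 2 lower of the 8 tested family members. AREG passed the filter through its SLFN5 siRNA libraries alone, and the count over tested members is a description only. In bulk RNA, fewer cells of a type and less RNA per cell cannot be told apart.

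**Figure D1:**
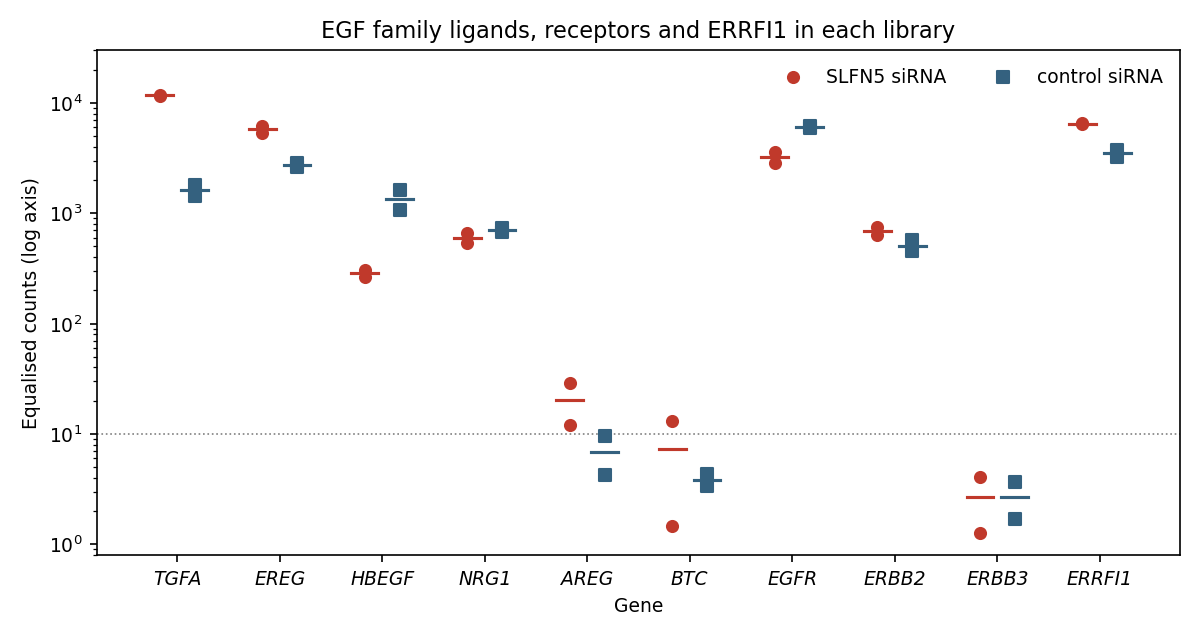
Equalised counts (log axis) of the 10 genes in each library, SLFN5 siRNA as red circles and control siRNA as blue squares, with a line at the mean of the 2 libraries of a group and a dotted line at 10 equalised counts, the filter on low values. TGFA lies at 11764 and 11635 after SLFN5 siRNA and at 1815 and 1442 in controls, whereas HBEGF and EGFR lie lower after SLFN5 siRNA, and BTC and ERBB3 overlap between groups.

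TGFA (ENSG00000163235), transforming growth factor alpha, binds EGFR. It had 11764 and 11635 equalised counts in the SLFN5 siRNA libraries, against 1815 and 1442 in the control libraries. Both SLFN5 siRNA libraries lay far above both controls, and they differed from each other by less than the controls did. The means were 11699 ± 91.3 and 1628 ± 264 (SD, n = 2 libraries each), a log2 change of 2.85 (SE 0.12, limma adjusted p = 3.95e-07), or 7.23-fold. Among all 15640 tested genes this increase ranked 16 in size, and its p ranked 2. The recovered counts behind it were 11507 and 10015 after SLFN5 siRNA and 3117 and 995 in controls.

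EREG (ENSG00000124882), epiregulin, binds EGFR and ERBB4. It had 5332 and 6178 equalised counts after SLFN5 siRNA and 2866 and 2631 in controls, so that the groups did not overlap. It rose 2.09-fold, a log2 change of 1.06 (SE 0.12, limma adjusted p = 8.61e-05). EREG was the more abundant of the pair in both controls, where the ratio of TGFA to EREG equalised counts was 0.633 and 0.548. After SLFN5 siRNA that ratio was 2.21 and 1.88.

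HBEGF (ENSG00000113070), the heparin-binding EGF-like growth factor, is another ligand of EGFR and ERBB4. It had 266 and 306 equalised counts after SLFN5 siRNA, against 1058 and 1626 in controls. The controls differed more between themselves than the SLFN5 siRNA libraries did, yet the lower control was still well above both. HBEGF fell by 2.20 on the log2 scale (SE 0.19, limma adjusted p = 2.47e-05), a fold of 0.218, and ranked 43 among the decreases of all tested genes. Leaving out control 1 or control 2 gave log2 changes of -2.51 and -1.89.

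The promoters of the 5 genes that passed are shown because these genes share a pathway and yet moved in opposite directions. Each sequence runs 5′ to 3′ on the gene's strand from 250 bases before to 50 bases after a RefSeq transcription start, in the GRCh38.p14 build. RefSeq windows were found for 8 of the 10 genes, without ERBB3 and NRG1, and the first window of each gene is printed. Capitals mark matches, on either strand, to the hypoxia response core ACGTG, to the AP-1 motif TGANTCA, to the GC box motif GGGCGG, to the core promoter motif TATAAA or to the TEAD motif GGAATG.
TGFA, chr2:70553777-70554076, minus strand: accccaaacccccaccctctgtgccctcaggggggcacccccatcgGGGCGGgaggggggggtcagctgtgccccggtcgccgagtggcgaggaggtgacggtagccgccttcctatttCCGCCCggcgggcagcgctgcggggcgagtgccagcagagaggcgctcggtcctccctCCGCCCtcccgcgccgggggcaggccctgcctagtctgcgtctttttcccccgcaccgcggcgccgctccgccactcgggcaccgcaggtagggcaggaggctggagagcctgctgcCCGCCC
EREG, chr4:74364895-74365194, plus strand: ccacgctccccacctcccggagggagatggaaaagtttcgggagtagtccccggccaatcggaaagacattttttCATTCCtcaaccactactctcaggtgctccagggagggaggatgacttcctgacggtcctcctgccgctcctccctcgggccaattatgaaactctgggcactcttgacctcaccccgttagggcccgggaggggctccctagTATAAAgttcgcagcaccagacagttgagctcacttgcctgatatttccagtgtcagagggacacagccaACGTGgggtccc
ERRFI1, chr1:8026260-8026559, minus strand: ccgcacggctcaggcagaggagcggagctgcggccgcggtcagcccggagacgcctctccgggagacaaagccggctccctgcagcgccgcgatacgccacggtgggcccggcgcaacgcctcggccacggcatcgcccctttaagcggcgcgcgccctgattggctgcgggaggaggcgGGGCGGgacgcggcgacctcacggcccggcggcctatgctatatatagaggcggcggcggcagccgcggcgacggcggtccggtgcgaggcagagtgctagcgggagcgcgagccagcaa
HBEGF, chr5:140346554-140346853, minus strand: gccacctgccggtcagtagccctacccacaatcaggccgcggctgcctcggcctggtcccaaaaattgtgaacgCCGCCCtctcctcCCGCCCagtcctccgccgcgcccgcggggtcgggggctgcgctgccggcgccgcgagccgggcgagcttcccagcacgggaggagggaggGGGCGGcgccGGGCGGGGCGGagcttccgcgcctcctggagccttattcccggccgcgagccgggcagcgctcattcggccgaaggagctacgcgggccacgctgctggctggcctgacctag
EGFR, chr7:55018767-55019066, plus strand: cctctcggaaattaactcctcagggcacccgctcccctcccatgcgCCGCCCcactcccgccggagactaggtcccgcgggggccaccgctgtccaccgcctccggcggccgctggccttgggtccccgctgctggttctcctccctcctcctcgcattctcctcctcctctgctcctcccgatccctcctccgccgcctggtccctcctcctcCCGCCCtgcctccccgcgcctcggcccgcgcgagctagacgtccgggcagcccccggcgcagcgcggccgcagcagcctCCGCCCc
The windows of TGFA, HBEGF and EGFR had 4, 5 and 3 GC box matches, of which 2 overlap in HBEGF, and ERRFI1 had 1. GC boxes are common, with a match in 45.0% of the 35116 RefSeq windows of this length. The share of windows with several matches was not counted. EREG had no GC box match, but a TATAAA that starts at -32 (11.5% of all windows), a GGAATG in reverse at -175 (14.0%) and an ACGTG at base 39, counting the start as base 1 (21.4%). AREG had a TATAAA at -29 and 1 GC box. In the second RefSeq windows, TGFA had no match to any of these motifs, and EGFR had 2 TGANTCA (7.71% of all windows), 2 TATAAA and 1 GGAATG. G and C made up 75.3% of the TGFA, 75.0% of the HBEGF, 75.3% of the EGFR, 74.7% of the ERRFI1 and 57.7% of the EREG window, beside a median of 58.7% over all windows. The share with a GC box among windows of like G and C content was not counted. Several GC box matches stood in the windows of TGFA, which rose, and of HBEGF and EGFR, which fell. The part of these motifs in the changes was not tested.

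NRG1 (ENSG00000157168), neuregulin 1, binds ERBB3 and ERBB4. It had 661 and 536 equalised counts after SLFN5 siRNA and 675 and 730 in controls. The nearest libraries of the groups lay close together, and the log2 change of -0.24 (SE 0.15) did not pass (limma adjusted p = 0.268). NRG1 is read from many promoters into unlike isoforms, which a single value per gene does not separate.

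AREG (ENSG00000109321), amphiregulin, an EGFR ligand, was close to the detection limit. It had 28.6 and 12.1 equalised counts after SLFN5 siRNA and 4.20 and 9.54 in controls. These rest on 28, 10, 8 and 7 recovered counts in SLFN5 siRNA 1, SLFN5 siRNA 2, control 1 and control 2. The SLFN5 siRNA libraries were the higher, but they lay farther from each other than the lower of them lay from the controls, and the log2 change of 1.41 (SE 0.65) did not pass (limma adjusted p = 0.127). The table also lists AREGB, a near-identical copy of AREG, with 1 recovered count in all, and reads shared by the copies could have been lost or split in counting.

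BTC, betacellulin, binds EGFR and ERBB4. Under ENSG00000174808 it had 13.2 and 1.47 equalised counts after SLFN5 siRNA and 3.38 and 4.28 in controls, so the groups overlapped. SLFN5 siRNA 1 held 13 of its 23 recovered counts. Under ENSG00000261530 it had 0 recovered counts in every library, and a count of 0 allows up to 3 counts per library (counting error only).

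EREG, AREG and BTC are neighbours on chromosome 4: in RefSeq they are 3 consecutive protein-coding genes, with EPGN (epigen, also an EGFR ligand) next to EREG and PARM1 next to BTC. Of these 5 neighbours only EREG was abundant in the deposited values, which for AREG may lack reads shared with AREGB. EPGN had 1 recovered count, in control 2, and PARM1 was at 0 equalised counts in all 4 libraries.

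**Figure D2:**
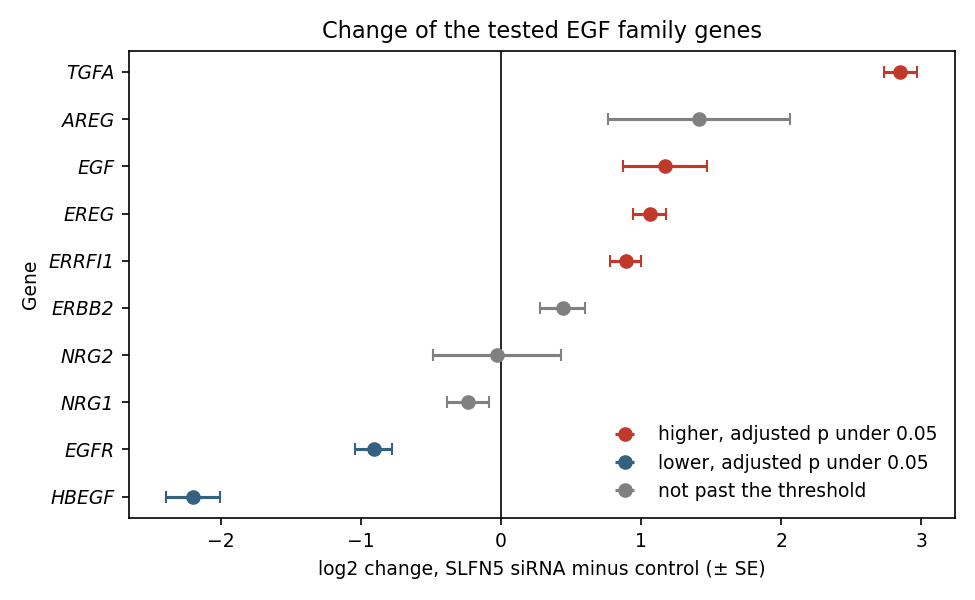
Log2 change (SLFN5 siRNA minus control, bars ± SE from limma) of the 8 tested members and of EGF and NRG2, ordered by size, with called genes in red (higher) or blue (lower). TGFA lies at 2.85 and HBEGF at -2.20, with ERBB2, NRG1 and NRG2 nearest to 0.

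Of the receptors, EGFR fell and ERBB2 did not pass. EGFR (ENSG00000146648), the receptor of TGFA, EREG, HBEGF, AREG and BTC, had 3600 and 2857 equalised counts after SLFN5 siRNA, against 6186 and 5899 in controls. Both SLFN5 siRNA libraries lay below both controls, by more than either group's spread. EGFR fell by 0.91 on the log2 scale (SE 0.13, limma adjusted p = 3.37e-04), a fold of 0.531. Its log2 change ran from -1.08 to -0.73 over 13 alternatives, and the call was lost in 1 of them, without a trend in the variance (adjusted p = 0.0568). EGFR-AS1, on the opposite strand within EGFR, stood at 0 and 0 equalised counts after SLFN5 siRNA and at 1.10 and 1.45 in controls. It was too low to test, and no difference can be read from these values.

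ERBB2 (ENSG00000141736), the receptor without a known ligand that pairs with the other ERBB receptors, had 748 and 630 equalised counts after SLFN5 siRNA and 568 and 450 in controls. The groups did not overlap, but the gap between them was smaller than the spread within either. The log2 change was 0.44 (SE 0.16, limma adjusted p = 0.0618). The log2 change of ERBB2 was 0.61 without control 1 and 0.56 without SLFN5 siRNA 2, fits that leave 1 library in a group. Among the other alternatives with no replicate block, the call was made by limma-voom on the recovered counts (0.53, adjusted p = 0.0237). In GENCODE 29 ERBB2 shares 571 exon bases with MIEN1 and 194 with PGAP3, both on the opposite strand. MIEN1 had 507 and 495 equalised counts after SLFN5 siRNA and 428 and 361 in controls, and PGAP3 had 269 and 226 after SLFN5 siRNA and 186 and 128 in controls. The sources do not state whether counting used strand, and the part of these genes in the ERBB2 values was not tested.

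ERBB3 (ENSG00000065361), the main partner of ERBB2 for neuregulins, had 4.08 and 1.26 equalised counts after SLFN5 siRNA and 3.63 and 1.69 in controls. With 12 recovered counts over 4 libraries a difference was not detectable at this depth. ERBB4, the remaining receptor, had 2 recovered counts in all, both in control 1 (equalised counts 1.22 in control 1 and 0.0691 in control 2).

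ERRFI1 (ENSG00000116285), the feedback inhibitor that binds the receptor kinase domain, rose as EGFR fell. It had 6371 and 6513 equalised counts after SLFN5 siRNA and 3233 and 3736 in controls. The groups were far apart compared with the spread in each, and ERRFI1 rose 1.85-fold (log2 change 0.89, SE 0.11, limma adjusted p = 1.97e-04). Per EGFR equalised count there were 1.77 and 2.28 of ERRFI1 after SLFN5 siRNA, against 0.523 and 0.633 in controls.

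The ratios of TGFA, EREG and HBEGF to EGFR transcripts put the changes given above on another scale. They did not overlap between the groups, which for TGFA and EREG follows from their rise and the fall of EGFR. The share of all tested genes whose ratio to EGFR separates the groups was not counted. For each EGFR equalised count, TGFA had 3.27 and 4.07 after SLFN5 siRNA and 0.293 and 0.244 in controls. The ratio for EREG was 1.48 and 2.16 after SLFN5 siRNA, against 0.463 and 0.446 in controls. HBEGF went the other way, with 0.0739 and 0.107 per EGFR count after SLFN5 siRNA and 0.171 and 0.276 in controls. Such ratios within a library do not depend on its scaling factor.

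To set genes side by side, equalised counts were divided by exon length in kilobases (all exons of GENCODE 29 merged, which includes rarely used ones). After SLFN5 siRNA the order of mean levels per kilobase was TGFA 2357 ± 18.4, ERRFI1 1539 ± 23.9, EREG 1007 ± 105, EGFR 258 ± 41.9, HBEGF 94.8 ± 9.51, ERBB2 66.8 ± 8.10, NRG1 52.9 ± 7.82, AREG 12.3 ± 7.07, BTC 2.61 ± 2.95 and ERBB3 0.295 ± 0.220 (SD, n = 2). Library values of neighbours in that order did not overlap down to AREG, and those of AREG, BTC and ERBB3 are near the detection limit. The order also rests on the merged exon length, which the spread between libraries does not assess, and other lengths were not tried. In controls ERRFI1 led at 832 ± 85.0, followed by EGFR at 483 ± 16.2, EREG at 481 ± 29.2, HBEGF at 445 ± 133 and TGFA at 328 ± 53.1 (SD, n = 2). EGFR, EREG and HBEGF were not separable there, since their libraries overlapped, and TGFA overlapped with HBEGF. NRG1 (62.0 ± 3.47) and ERBB2 (49.3 ± 8.10) came next, in the reverse of their order after SLFN5 siRNA. The change of neither gene passed the threshold, and the difference in order was not tested.

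On the same scale the 7 ligand genes TGFA, EREG, HBEGF, NRG1, AREG, BTC and EGF summed to 3486 and 3600 equalised counts per kilobase after SLFN5 siRNA and to 1289 and 1367 in controls. TGFA made up 68.0% and 65.1% of that sum after SLFN5 siRNA, against 28.4% and 21.2% in controls. HBEGF made up 2.53% and 2.82% after SLFN5 siRNA and 27.2% and 39.4% in controls. The share of EREG was 26.8% and 30.0% after SLFN5 siRNA and 38.9% and 33.7% in controls, although its own level was higher after SLFN5 siRNA. The summed level of EGFR and ERBB2 was 360 and 289 per kilobase after SLFN5 siRNA and 549 and 515 in controls, so the ratio of summed ligand to summed receptor level was 9.68 and 12.4 after SLFN5 siRNA and 2.35 and 2.66 in controls. These are transcript levels, and protein, shedding and receptor activity were not measured.

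**Figure D3:**
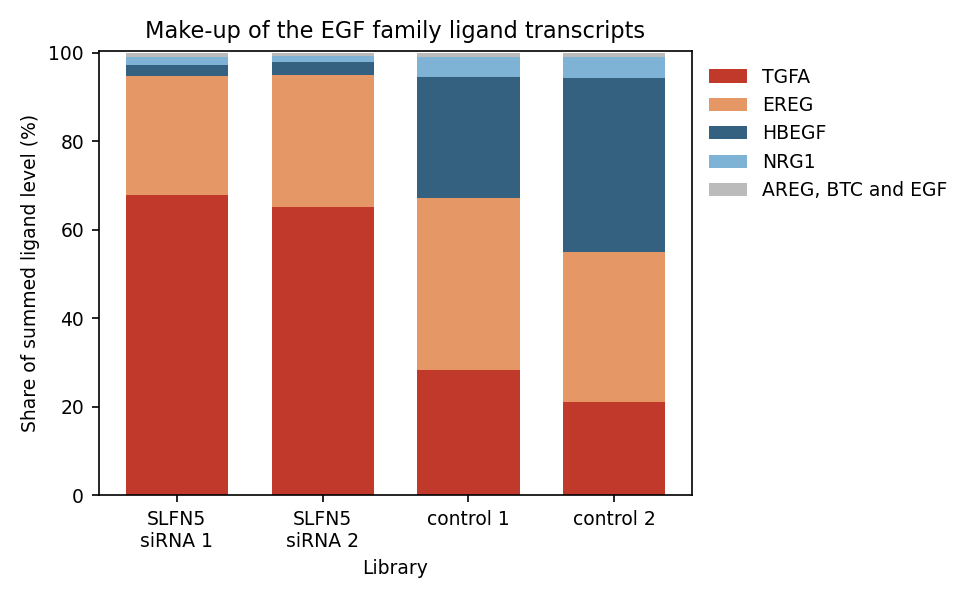
Share (%) of each ligand in the summed ligand level per exon length, 1 stacked bar per library, with AREG, BTC and EGF added together in grey. TGFA takes 68.0% and 65.1% after SLFN5 siRNA and 28.4% and 21.2% in controls, and HBEGF 2.53% and 2.82% against 27.2% and 39.4%.

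Of the other family genes, EGF itself rose from a low level. EGF, the ligand that gave the family its name, had 90.0 and 113 equalised counts after SLFN5 siRNA and 51.3 and 38.5 in controls (log2 change 1.17, SE 0.30, limma adjusted p = 0.0130). The call was lost without control 2 (log2 change 0.96, adjusted p = 0.0813) and without SLFN5 siRNA 2 (1.00, adjusted p = 0.0702), and by limma with no variance trend (adjusted p = 0.0568). NRG2 had 25.5 and 16.5 equalised counts after SLFN5 siRNA and 21.6 and 20.4 in controls (log2 change -0.03, adjusted p = 0.972), with an SE of 0.46. NRG4 and NRG3 had 6 and 1 recovered counts in all.

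The profiles most like those of the members with the largest changes were sought over the 4 libraries, as the smallest root mean square difference between log2 values centred on each gene's mean. For TGFA they were PKIB, an inhibitor of protein kinase A (difference 0.103 log2 units), ZNF664, a zinc finger gene (0.134), and TINAG, a kidney basement membrane glycoprotein (0.183). PKIB, with 36.8 and 38.3 equalised counts after SLFN5 siRNA and 4.64 and 4.41 in controls, is far less abundant than TGFA. For HBEGF they included CTD-2013N17.1 (0.067; 33 recovered counts in all) and the orphan receptor GPR63 (0.129). GPR63 had 14.3 and 12.8 equalised counts after SLFN5 siRNA and 49.7 and 80.7 in controls, and as for HBEGF control 2 was its highest library. With 4 libraries in 2 groups, many genes with a change of like size have like profiles. PKIB passed the filter on low values through its SLFN5 siRNA libraries alone, and CTD-2013N17.1 through its control libraries alone. The closeness of these 2 profiles is a description only.

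Among 12 genes of ligand shedding and trafficking, 10 were tested, 3 rose and 5 fell, beside 13.3% higher and 16.3% lower of all tested genes. Their median log2 change was -0.31, beside -0.03 for all tested genes. ADAM17, the main sheddase of TGFA, AREG, EREG and HBEGF, had 1626 and 1586 equalised counts after SLFN5 siRNA and 2514 and 2321 in controls (log2 change -0.59, SE 0.11, limma adjusted p = 0.00258). ADAM12, which can shed HBEGF, fell by 0.79 (adjusted p = 9.84e-04). GORASP2, a Golgi protein that binds the tail of the TGFA precursor, had the largest change of the list, with 912 and 761 equalised counts after SLFN5 siRNA against 2522 and 2218 in controls (log2 change -1.50, SE 0.13, adjusted p = 2.66e-05). The following were named after their values were seen. SDCBP (syntenin), which also binds that precursor, rose by a log2 change of 0.50 (adjusted p = 0.00546). RHBDF1 and RHBDF2, the iRhoms that carry ADAM17 to the surface, rose by log2 changes of 0.56 and 0.47 (adjusted p = 0.0411 and 0.0148). On leaving out control 2 or SLFN5 siRNA 1, the adjusted p of RHBDF1 was 0.389 and 0.196. That of RHBDF2 was 0.0730 on leaving out control 1, 0.0776 for control 2 and 0.0627 for SLFN5 siRNA 1. FRMD8 and ADAM10, the other genes of the list that fell, had log2 changes of -0.49 and -0.37 (limma adjusted p = 0.0347 and 0.0205). Their calls ended with quantile normalization (0.0809 and 0.172) and with limma-voom (0.0778 and 0.117). Without a variance trend the calls ended for ADAM17 (adjusted p = 0.0693), ADAM12 (0.0569), SDCBP (0.0939), RHBDF1 (0.201), RHBDF2 (0.0965), FRMD8 (0.182) and ADAM10 (0.136).

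Among 18 genes of the receptor adaptors and the RAS switch, all tested, 5 rose, 4 fell and 9 did not pass, with a median of 0.10. The share called over all tested genes was 29.6%. CRKL, an adaptor, had 1028 and 1049 equalised counts after SLFN5 siRNA and 3100 and 3334 in controls, a log2 change of -1.63 (SE 0.11, limma adjusted p = 6.57e-06). PTPN11 (SHP2), the phosphatase that keeps RAS active downstream of receptors, went the other way, with 3314 and 3974 after SLFN5 siRNA against 1813 and 1828 in controls (log2 change 0.99, SE 0.12, adjusted p = 1.53e-04). GAB1, the docking protein of SHP2, was low, at 22.5 and 32.3 after SLFN5 siRNA and 63.5 and 61.0 in controls. Its log2 change of -1.18 passed with all libraries (adjusted p = 0.0273), but leaving out control 1 gave an adjusted p of 0.120, leaving out control 2 one of 0.116, leaving out SLFN5 siRNA 1 one of 0.0963 and dropping the variance trend one of 0.0548.

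Of 21 tested genes of receptor turnover and inhibition, 1 rose, 5 fell and 15 did not pass (median -0.08). That is close to the share called over all tested genes (29.6%) and is no result about the list. LRIG3, a membrane protein of the family that restrains ERBB receptors, had 321 and 299 equalised counts after SLFN5 siRNA and 556 and 607 in controls (log2 change -0.91, SE 0.15, limma adjusted p = 0.00124). SOCS5, which promotes EGFR turnover, fell by 0.76 (adjusted p = 0.00295), and STAM, a sorting protein of endocytosed receptors, fell by 0.75 (adjusted p = 0.00203). SOCS3, an inhibitor of cytokine signalling, stood at 617 and 506 after SLFN5 siRNA and at 788 and 944 in controls (log2 change -0.62, adjusted p = 0.0105), a call that ended on leaving out control 2 (0.101) or SLFN5 siRNA 2 (0.0565). Without a variance trend the calls ended for SOCS5 (adjusted p = 0.0551), STAM (0.0546) and SOCS3 (0.104). The ubiquitin ligase CBL, which marks active EGFR for degradation, had 719 and 816 after SLFN5 siRNA and 739 and 648 in controls (log2 change 0.15, SE 0.14, adjusted p = 0.484; named after its value was seen).

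Of 15 tested genes that ERK signalling is known to induce, 1 rose, 3 fell and 11 did not pass, with a median of 0.14. This count too is close to the 29.6% called over all tested genes. PHLDA1, an EGF-inducible gene, had 3866 and 4238 equalised counts after SLFN5 siRNA and 1319 and 1637 in controls (log2 change 1.46, SE 0.13, limma adjusted p = 2.61e-05). MYC fell by 0.64 (adjusted p = 0.00425), a call that ended without a variance trend (0.0969). The feedback inhibitor SPRY2 stood at 213 and 163 after SLFN5 siRNA and at 256 and 333 in controls (log2 change -0.65, adjusted p = 0.0386), a call that ended on leaving out control 2 (0.308) or SLFN5 siRNA 2 (0.167), with median-of-ratios scaling (0.0531), with limma-voom (0.107) and without a variance trend (0.136). The ERK phosphatase DUSP6 had 261 and 282 after SLFN5 siRNA and 209 and 249 in controls, and its log2 change of 0.25 (SE 0.19; named after its value was seen) did not pass (adjusted p = 0.354). In the PI3K and AKT arm 1 of 14 tested genes rose and 1 fell (median -0.08), beside 13.3% higher and 16.3% lower of all tested genes. The gene that fell was PIK3R3, a regulatory subunit of PI3K, with 324 and 339 after SLFN5 siRNA against 692 and 586 in controls (log2 change -0.94, SE 0.16, adjusted p = 0.00106). The gene that rose was PIK3R2, another regulatory subunit, named after its value was seen (log2 change 0.54, adjusted p = 0.0183). Its call was lost without control 2 (0.173), without SLFN5 siRNA 1 (0.0934) or without a variance trend (0.113).

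**Figure D4:**
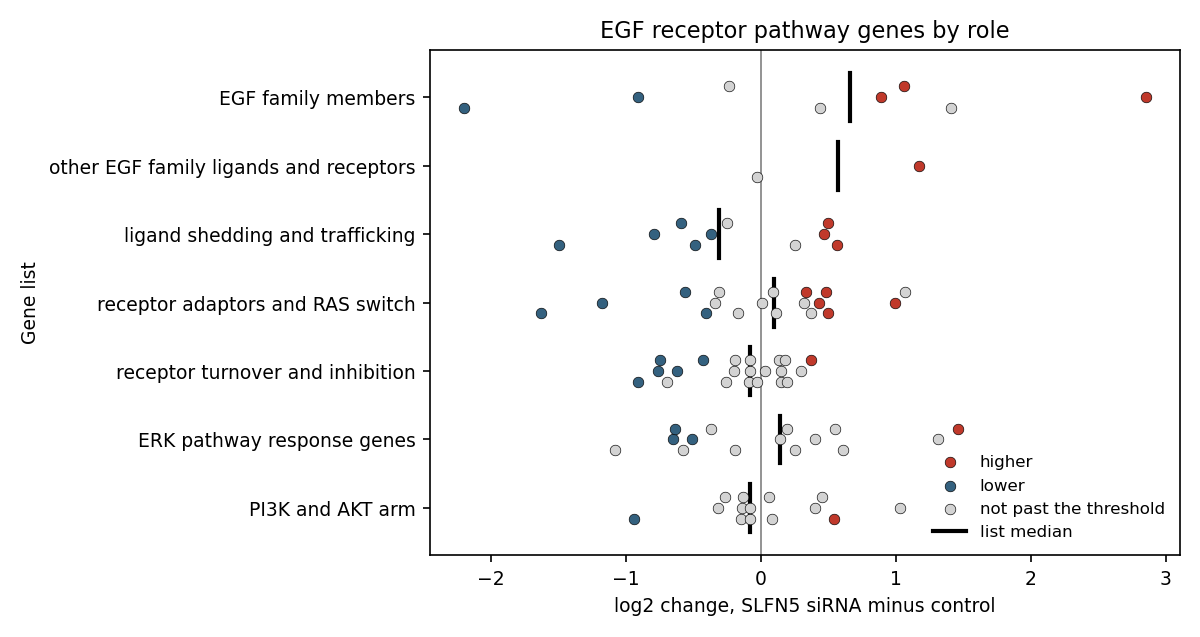
Log2 change (SLFN5 siRNA minus control) of each tested gene, 1 row per gene list, with red for higher, blue for lower and grey for genes not past the threshold, and a black line at the list's median. The EGF family members span -2.20 to 2.85, and the medians of the 5 downstream or processing lists lie between -0.31 and 0.14.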

How the data were processed

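Poly(A)-selected RNA was sequenced as single-end reads per the labels' protocols, and hg19 and edgeR are named in the submitters' processing notes. The aligner, counter and annotation version that the submitters used are not stated in the labels or the file header. The authors deposited 1 signal per gene and library, fractional because they had adjusted counts to one library size. A negative binomial quantile adjustment (dispersion 0.0162) was inverted and gave whole counts for all 230636 values (3 genes by a search of nearby counts; tolerance 0.01). Those counts served for depth, for low genes and for limma-voom. The test was limma 3.58.1 in R 4.3.3 on log2(value + 1), group only, with a variance trend (prior degrees of freedom 9.60, residual 2). It was tested on simulated counts. On this scale the folds of low genes come out too small. Named genes were all members, SLFN5, the other family genes, and per list up to 5 called genes with an absolute log2 change of at least 0.58. The 3 nearest profiles were taken for the members with the largest increase and decrease. For the decrease, 1 of the 3 is not reported here. The members and lists were chosen with earlier results of these data known. Alternatives changed the pseudocount, filter, variance trend, scaling, transformation, replicate block and libraries.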

Additional observations from a re-analysis of the deposited data

How the results depend on the processing

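TGFA, EREG, HBEGF, ERRFI1 and SLFN5 kept direction and call in all 13 alternatives, with log2 changes of 2.69 to 3.02, 0.96 to 1.24, -2.51 to -1.89, 0.79 to 1.08 and -1.70 to -1.20. Their calls were narrow by limma with no variance trend, at adjusted p = 0.042, 0.0432, 0.042, 0.048 and 0.0469 in that order. AREG and NRG1 stayed short of the threshold in 12 and 13 alternatives, with adjusted p from 0.0657 to 0.481 and from 0.105 to 0.732. Without a variance trend 672 genes were higher and 510 lower (2086 and 2544 with it), 1 member was lower, and 2 genes of the pathway lists were higher and 4 lower (12 and 18 with it). Leaving out 1 library each, where a lone library is assumed to vary like the other group, gave 1346 to 1767 genes higher and 1588 to 2341 lower, 3 to 9 pathway list genes higher and 12 to 15 lower. The lowest of these counts came without control 2 (12 lower also without control 1). The fits without control 1 or without control 2 had infinite prior degrees of freedom. Their p-values therefore used the variance trend alone and not each gene's own spread, and are not on a par with those of the other fits. The numbers 1 and 2 are shared by the groups, and titles with the same number share a sample code, but no label says what number or code marks. Over 15640 genes the difference between replicates correlated at r = 0.19 between groups. With a replicate block 19 pathway list genes were higher, ERBB2 passed (adjusted p = 0.0037), and 3008 genes were higher and 3695 lower. The limma-voom fit on library totals also called 19 pathway list genes higher. It moved the median log2 change of all genes to 0.08 from -0.03 and made 60.6% of calls higher instead of 45.1%. The log2 change of NRG2 turned to 0 with median-of-ratios scaling, 0.09 with limma-voom, and, on leaving out 1 library, lay between -0.33 and 0.27 (0.01 without control 1). Of the markers that did not pass, PAX8 (-0.09), KRT8 (-0.03) and MET (-0.12) turned to 0.07, 0.20 and 0.14 with quantile normalization. PAX8 and KRT8 turned to 0.03 and 0.09 with limma-voom, and KRT8 to 0 with median-of-ratios scaling. On leaving out 1 library PAX8 lay between -0.21 and 0.03 and KRT8 between -0.12 and 0.07. The cause of these shifts was not tested. Depth limits AREG, BTC and ERBB3, at 53, 23 and 12 recovered counts over 4 libraries. For AREG, reads shared with AREGB could also have been lost.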

Other observations

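The deposited table lists its rows in 3 runs of rising Ensembl identifier, and no label says what the runs are. All 956 rows of the first run had a higher mean after SLFN5 siRNA, and all 570 rows of the second run had a lower one. TGFA, EREG and EGF stand in the first run, and HBEGF and SLFN5 in the second. ERRFI1, EGFR, ERBB2, NRG1, AREG, BTC and ERBB3 stand in the third run of 56133 rows. Limma called 783 of 875 tested genes in the first run, 465 of 520 in the second and 3382 of 14245 in the third. The smallest absolute log2 change of a tested gene was 0.91 in the first run, 0.74 in the second and 0 in the third.

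Of the 11 renal carcinoma and epithelial markers, all tested, CDH6, CA12, EPAS1 and VHL rose, VIM, CDH2 and AXL fell, and PAX8, KRT8, KRT18 and MET did not pass, beside 29.6% called of all tested genes. These genes were named after their values were seen. CDH6, a kidney cadherin, had the largest change, with 13060 and 9823 equalised counts after SLFN5 siRNA and 6207 and 2888 in controls (log2 change 1.42, SE 0.27, limma adjusted p = 0.00215). Its log2 change was 0.87 without control 2. The hypoxia factor EPAS1 (HIF-2 alpha) had 1645 and 1246 after SLFN5 siRNA and 1157 and 831 in controls (log2 change 0.55, SE 0.18, adjusted p = 0.0358), and its call ended without control 2 (0.287) or SLFN5 siRNA 1 (0.217). The receptor tyrosine kinase AXL had 6125 and 6684 after SLFN5 siRNA and 8310 and 9567 in controls (log2 change -0.48, adjusted p = 0.00842), and its call ended without control 2 (0.105) or with quantile normalization (0.0804). VHL, CA12, VIM and CDH2 had log2 changes of 0.46, 0.53, -0.46 and -0.47 (adjusted p = 0.0234, 0.0165, 0.0140 and 0.00516). Leaving out 1 library ended the calls of VHL, CA12 and VIM, quantile normalization that of CDH2, and dropping the variance trend all 7.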
